A study of Homo sapiens with 7 samples.

Results

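In Kasumi-1 cells, 5079 of the 11020 p300 peaks (46.1%, exact 95% interval 45.2 to 47.0) lay at H3K4me3 without a listed AML1, AML1-ETO or N-CoR peak in the same window. Each deposited peak is a 100 bp window around a summit, the position of highest ChIP-seq enrichment. A p300 window was taken when it shared no base with any AML1, AML1-ETO or N-CoR window and had an H3K4me3 summit within 1000 bp of its centre. The members were therefore selected on peak positions, and their H3K4me3 and their lack of the other proteins are no findings. The remaining p300 windows served for comparison. Another protein shared a base with 2824 windows near H3K4me3, 624 windows were alone but away from H3K4me3, and 2493 were shared and away from it. A further comparison was made with 10353 H3K4me3 summits that had no p300 summit within 1000 bp.

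Kasumi-1 is an established myeloid leukemia line in which the t(8;21) translocation gives rise to the AML1-ETO fusion protein. All libraries came from untreated cells of this single line, so no comparison with cells lacking the fusion was possible. ChIP-seq recovers the DNA bound by a protein, or wrapped around a modified histone, with an antibody and sequences it. The AML1 antibody recognised the part of AML1 that is absent from the fusion, and an ETO antibody was used for AML1-ETO. The replicates of each antibody had been pooled into 1 list before deposit, with 11020 windows for p300, 19632 for H3K4me3, 11692 for AML1, 18087 for AML1-ETO and 10004 for N-CoR. The peaks of the p300 and H3K4me3 lists are named with the stem of the AML1 list and those of the N-CoR list with the stem of the AML1-ETO list, and each list was assigned to its antibody by the sample it was deposited under. The lists hold no read counts, heights or p-values, so the depth behind a peak could not be read from them, and the pooled lists give no spread between replicates. The paper's methods state a p-value threshold for peak calling, so a protein without a listed summit may still bind there more weakly. All intervals below are 95% intervals for counting error over windows or genes, and no p-value could be computed. As a check of the cell type by promoter H3K4me3, 10 of 10 myeloblast markers (among them CD34, KIT, MPO and SPI1) had an H3K4me3 summit within 1000 bp of a start, against 2 of 10 markers of other cell types.

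p300 is a lysine acetyltransferase that does not read DNA sequence itself but is brought to promoters and enhancers by transcription factors, where it acetylates histones and other proteins. H3K4me3 marks nucleosomes around active transcription starts, typically flanking a stretch of open DNA at the start itself. Many human promoters lie in CpG islands, sequences rich in G, C and undepleted CpG, and are used in most cell types. Such promoters often carry binding sequences of widely expressed factors such as the ETS family, NRF1, YY1, CREB and SP/KLF proteins.

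The sequences under the lowest-numbered members that held a motif are shown first, because the motif results below rest on these letters. Each is a 30-base stretch of the plus strand of GRCh37 (hg19), 5′ to 3′, with the match to the motif on either strand in capitals. The first set shows the ETS letters CCGGAAG near the starts of SNRNP27 (a spliceosome protein, plus strand), TANK (a regulator of NF-kB signalling, plus strand) and SLC38A10 (an amino acid transporter, minus strand).
SNRNP27, chr2:70121063-70121092: tcccggccctcCCGGAAGttgttgcacagt
TANK, chr2:162016913-162016942: acaaaatgcaaCTTCCGGttggagtcactc
SLC38A10, chr17:79269026-79269055: cgagcccagacCCGGAAGagccgcagagcc

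The NRF1 letters GCGCATG are shown at N6AMT1 (a methyltransferase, minus strand) and NCAPD3 (a condensin II subunit, minus strand), and the YY1 letters AAGATGGC at TAF6 (a TFIID subunit, minus strand), PCIF1 (an mRNA cap methyltransferase, plus strand) and HYCC1 (a plasma membrane lipid kinase adaptor, minus strand). In the stretch at NCAPD3, matches on both strands overlap.
N6AMT1, chr21:30257674-30257703: tcgctgcgttcCATGCGCgtgcgcagggcg
NCAPD3, chr11:134094437-134094466: ctctccctGCGCATGCGCagcgagctctcc
TAF6, chr7:99716953-99716982: cggcgctcggcGCCATCTTggccccgcccc
PCIF1, chr20:44563333-44563362: gcccgggacacAAGATGGCggcagcggcgc
HYCC1, chr7:23053670-23053699: ggtcccggtgaGCCATCTTccccctcctct

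The E-box CACGTG and the CRE palindrome TGACGTCA, which were less common in the members than in shared windows, are shown at EIF3A (a translation initiation factor subunit, minus strand), IMPDH2 (the rate-limiting enzyme of guanine nucleotide synthesis, minus strand) and XRN2 (a nuclear exoribonuclease, plus strand). The complete 100 bp window upstream of PTMA (prothymosin alpha, plus strand) overlapped no annotated exon, and its capitals mark the E-box.
EIF3A, chr10:120840325-120840354: aaaggaaggagcCACGTGacctccccgcgg
IMPDH2, chr3:49066886-49066915: gcgcgcgacgcTGACGTCAgggcgtagtgc
XRN2, chr20:21283904-21283933: cggcggcgccgTGACGTCActtccgttctc
PTMA, chr2:232571998-232572097: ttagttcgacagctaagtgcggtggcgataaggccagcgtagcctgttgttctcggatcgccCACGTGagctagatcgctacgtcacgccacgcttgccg

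Being alone in a 100 bp window did not mean that the promoter lacked the other proteins. A summit of AML1, AML1-ETO or N-CoR lay 100 to 200 bp from 766 members (15.1%, 14.1 to 16.1), within 500 bp of 1516 (29.8%, 28.6 to 31.1) and within 1000 bp of 1827 (36.0%, 34.7 to 37.3). In contrast, 2379 members (46.8%, 45.5 to 48.2) had none within 10000 bp. AML1 had a summit within 500 bp of 851 members, AML1-ETO within 500 bp of 886 and N-CoR within 500 bp of 513. Some values below are therefore also given for the 3563 members without another summit within 500 bp, compared with the unchanged 2824 shared windows, a comparison added after the data had been seen.

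At the limits of the rule, members and non-members were separated by few bases. The H3K4me3 summit nearest to the p300 window at BCL11A (a zinc finger repressor of blood cells) was 997 bp away and that at RPP25 (a ribonuclease P subunit) 996 bp away, whereas windows at AZU1 (azurocidin, a neutrophil granule protein) with 1001 bp and WDR87 with 1002 bp were left out. On the other limit, the windows at GUSB (beta-glucuronidase) and RPP38 (another ribonuclease P subunit) were members with another summit 100 bp away. The windows at RPL38 (a ribosomal protein), TSNAX and CAPZA2 were not, with another summit at 99 bp. Most members were well inside the H3K4me3 limit, with 47.1% at 0 to 250 bp and 37.1% at 251 to 500 bp, and 3.62% lay at 751 to 1000 bp.

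Of the 5079 members, 4776 (94.0%, 93.3 to 94.7) were within 1000 bp of a transcription start of GENCODE release 44, against 87.4% (86.1 to 88.6) of shared windows at H3K4me3, 83.2% (82.5 to 83.9) of H3K4me3 summits without p300 and 33.7% (30.0 to 37.5) of p300 windows alone away from H3K4me3. Since the rule asks for H3K4me3, a high share was built in. The nearest start belonged to a protein-coding gene in 86.2% (85.2 to 87.2) of the promoter members and to a lncRNA gene in 12.3% (11.4 to 13.3). The p300 summit was inside an annotated exon in 63.4% (62.0 to 64.7) of the promoter members, compared with 51.1% (49.1 to 53.1) of the shared windows at promoters. Outside promoters, 105 members were in introns, 40 in exons, 76 within 10000 bp upstream of a gene and 82 in other intergenic sequence.

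The p300 summits of the members sat on the transcription start or just downstream of it. Their median position was 8 bp downstream (6 to 11, n = 4776), with quartiles at -41 and 65 bp, where positive values are downstream. Shared windows at H3K4me3 had their median 11 bp upstream (-14 to -9, n = 2467), with quartiles at -66 and 20 bp. A position downstream of the start was found in 56.0% (54.6 to 57.4) of the members and 37.4% (35.5 to 39.4) of the shared windows, a difference of 18.62 percentage points (16.23 to 20.97). The rule sorts windows by distance to summits of the other proteins, and those near members lay mostly upstream of the start (below). Part of this difference may therefore be built in, and how much was not tested. Members were more frequent between 0 and 100 bp downstream (45.1% against 28.3%) and less frequent in the 100 bp before the start (25.3% against 41.9%). The share within 100 bp of a start was alike, at 70.3% (69.0 to 71.6) and 70.2% (68.3 to 72.0). The quartiles were 106 bp apart in members and 86 bp apart in shared windows. With starts of protein-coding transcripts, the medians were 7 bp (4 to 9) for members and -28 bp (-32 to -24) for shared windows. Within 100 bp of such a start were 62.3% (60.9 to 63.7) of members and 65.3% (63.3 to 67.3) of shared windows.

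**Figure D1:**
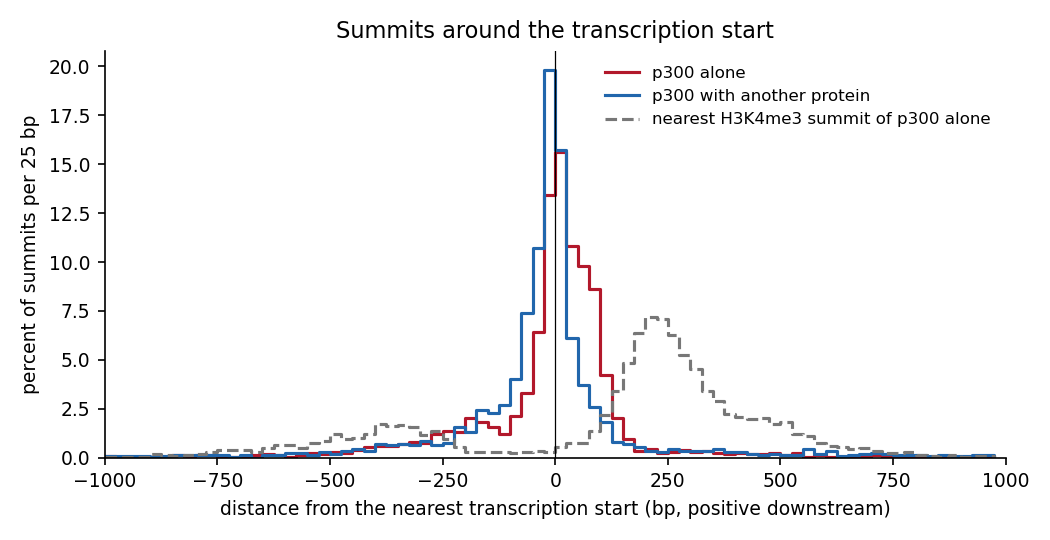
Percent of summits per 25 bp (y axis) against the distance in bp from the nearest transcription start, positive downstream (x axis), for the 4776 promoter members (red), the 2467 shared windows at promoters (blue) and the nearest H3K4me3 summit of each member (grey, dashed). Members and shared windows both peak at the start, with medians of 8 and -11 bp, the red curve has more summits between 0 and 100 bp, and the H3K4me3 summits peak farther downstream, with a median of 219 bp.

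The downstream position differed between members with and without another protein nearby. The 1432 promoter members with another summit 100 to 500 bp away had a median of 20 bp downstream (15 to 24), and 63.0% (60.4 to 65.5) were downstream. The 3344 without one had a median of 4 bp (2 to 6), and 53.1% (51.3 to 54.8) were downstream. In the former, the neighbouring summit of AML1, AML1-ETO or N-CoR lay upstream of the start in 78.2% (76.0 to 80.3), with a median position of -123 bp (-131 to -116). It was upstream of p300 in 70.7% (68.2 to 73.0), at a median of 146 bp (interval of the signed distance -153 to -140). Without these neighbours the downstream share was still 15.64 points (13.07 to 18.17) above that of the shared windows, in place of 18.62. It was 6.24 points (3.93 to 8.54) higher when the 1516 members with a neighbour were moved into the compared group, which raised the downstream share of that group.

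The H3K4me3 summits were shifted further into the gene. The nearest H3K4me3 summit of a member was at a median of 219 bp (214 to 223) downstream of the start and 188 bp (180 to 195) downstream of the p300 summit, and it was on the downstream side of p300 in 73.6% (72.4 to 74.9). At shared windows it was farther away, 230 bp (225 to 238) downstream of the start and 239 bp (231 to 248) downstream of p300, and on the downstream side of p300 in 69.2% (67.3 to 71.0). H3K4me3 summits without p300 lay at a median of 124 bp (119 to 130) downstream of the start. H3K4me3 summits on both sides of p300, within 1000 bp, were found at 27.4% (26.1 to 28.7) of the members and 20.7% (19.1 to 22.3) of the shared windows. An H3K4me3 summit within 100 bp of p300 was found at 11.8% (10.9 to 12.7) and 3.65% (2.94 to 4.47).

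Divergent promoters, in which a gene on the minus strand and a gene on the plus strand start close together and point away from each other, were frequent. A pair of protein-coding starts at most 1000 bp apart was within 1000 bp of 672 members (13.2%, 12.3 to 14.2). The share was 10.4% (9.34 to 11.6) in shared windows and 5.70% (5.26 to 6.16) in H3K4me3 summits without p300. Restricted to windows near a protein-coding start, it was 15.1% (14.1 to 16.2) for members and 13.3% (12 to 14.8) for shared windows, and these intervals overlap. When the partner could be of any gene type, 31.3% (30.0 to 32.6) of the members were at a divergent pair. By gene, 27.1% (25.8 to 28.4) of the 4568 protein-coding genes whose promoters held p300 alone and no shared window belonged to a pair, against 24.1% (22.4 to 26.0) of the 2174 genes with shared windows only, 13.9% (13.0 to 14.9) of the 5164 with H3K4me3 but no p300, and 14.3% (13.8 to 14.8) of all 19821. A single window can count for both genes of its pair.

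When any annotated protein-coding start of each gene was accepted, the summit lay between the starts of the pair in 319 of the 672 members (47.5%, 43.6 to 51.3) and in 70.2% (64.6 to 75.3) of the shared windows at pairs. Many of these summits were past the nearer start of one of the genes. With the start of each gene that was nearest to the summit, a definition added after the data had been seen, 181 members (26.9%, 23.6 to 30.5) and 51.2% (45.3 to 57.0) of the shared windows lay between. Among the lowest-numbered members that did so under both definitions was the one between TAF6 and CNPY4, with starts 317 bp apart, 3 bp from the start of TAF6 and 314 bp from that of CNPY4. Others were between NKIRAS1 and RPL15 (a ribosomal protein), 309 bp apart, between NCAPD3 and VPS26B (a retromer subunit), 121 bp apart, and between ALKBH1 (a nucleic acid demethylase) and SLIRP (a mitochondrial RNA-binding protein), 48 bp apart and with p300 at 28 and 20 bp from the starts.

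Members between the nearest starts of both genes held the ETS letters CCGGAAG within 50 bp in 47 of 181 cases (26.0%, 19.7 to 33.0), and all other members in 387 of 4898 (7.90%, 7.16 to 8.69). When any start was accepted, the shares were 20.4% (16.1 to 25.2) of 319 and 7.75% (7.01 to 8.55) of 4760. A summit between the nearest starts lies upstream of both, whereas 56.0% (54.6 to 57.4) of all promoter members were downstream of their start. The compared groups were not matched for position. The lowest-numbered of the 47 lay near SLIRP, NDUFA13 (a subunit of respiratory complex I) and GNPAT (an enzyme of ether lipid synthesis), all on the plus strand, with the ETS match in capitals in GRCh37.
SLIRP, chr14:78174359-78174388: taccctctgatCCGGAAGcagattctctcg
NDUFA13, chr19:19627013-19627042: tccgcccgggaCCGGAAGtgtgggatactg
GNPAT, chr1:231376897-231376926: ctgcacccccgCTTCCGGgttccgcgactg

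The members were rich in G, C and CpG. Within 50 bp of the summit, the median GC content was 67.0% (66.0 to 67.0), with quartiles at 61.0 and 71.0%. Shared windows had 66.0% (65 to 66.0), H3K4me3 summits without p300 66.0%, p300 windows alone away from H3K4me3 58.0% (57.0 to 59.0), and all 78564 protein-coding transcription starts 63.0%. Within 500 bp, the median GC content of members was 62.1% (61.9 to 62.3), below the 63.2% (63.0 to 63.4) of H3K4me3 summits without p300. The observed over expected CpG ratio, which is low where methylated CpG has been lost in evolution, was 0.840 (0.833 to 0.849) in members, 0.846 (0.831 to 0.858) in shared windows, 0.714 (0.709 to 0.721) at H3K4me3 summits without p300 and 0.349 (0.325 to 0.376) in p300 windows alone away from H3K4me3. The H3K4me3 summits without p300 lie farther from the start than the members, and the ratio in promoters of genes is given below. GC content of at least 50% with a CpG ratio of at least 0.6, taken within 500 bp of the summit, was met by 87.0% (86.0 to 87.9) of members, 75.4% (73.8 to 77.0) of shared windows, 75.4% (74.6 to 76.2) of H3K4me3 summits without p300 and 17.0% (14.1 to 20.2) of p300 windows alone away from H3K4me3. The central windows of members and shared windows were thus alike in CpG ratio, and the difference lay in the wider sequence and in the lower tail, where the 10th percentile of the ratio was 0.480 for members and 0.350 for shared windows.

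**Figure D2:**
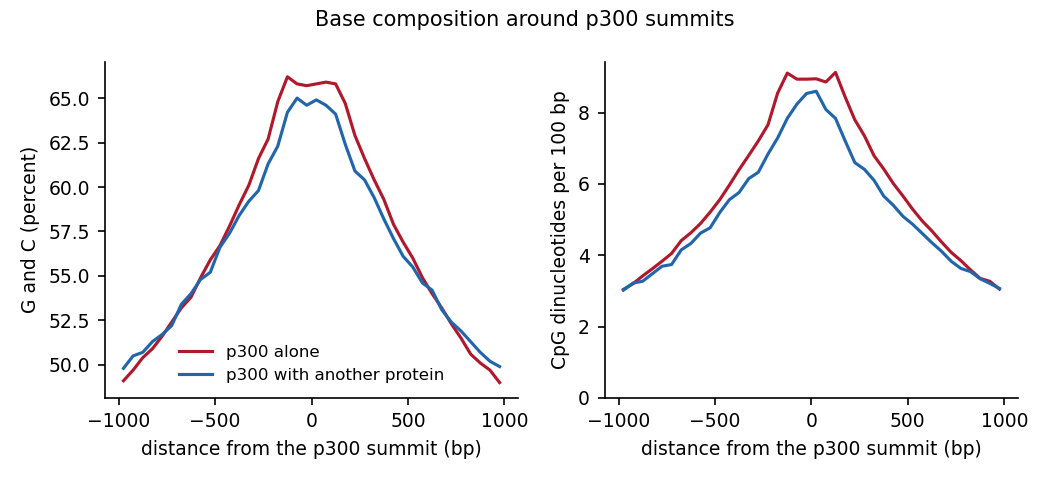
Percent of G and C (left) and CpG dinucleotides per 100 bp (right) in 50 bp bins against the distance in bp from the p300 summit in genome order, for members (red) and shared windows at H3K4me3 (blue). Members hold 65.8% G and C and 8.95 CpG per 100 bp at the summit and 49.1% and 3.04 in the bin farthest toward lower coordinates. The blue curve lies below the red one within about 600 bp for G and C and within about 900 bp for CpG.

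Motifs were counted as fixed letters on either strand within 50 bp of the summit. The ETS letters CCGGAAG were held by 434 members (8.54%, 7.79 to 9.35), against 2.49% (2.20 to 2.81) of windows of the same width 300 bp to either side and 6.19% of windows around all protein-coding starts. Shared windows held them in 13.0% (11.8 to 14.3), a difference of -4.45 points (-5.94 to -3.02), which was negative on 19 of 23 chromosomes with members. The letters were in 4.22% (3.27 to 5.36) of members with another summit 100 to 500 bp away and in 10.4% (9.40 to 11.4) of those without. The difference of the latter from the shared windows was -2.61 points (-4.22 to -1.03). When the members with a neighbour were moved into the compared group, which lowered its ETS share, the difference was 0.45 points (-0.88 to 1.80), an interval that holds 0. Against H3K4me3 summits without p300, the members were higher by 6.79 points (6.0 to 7.62) on 23 of 23 chromosomes, but those summits lie farther from the start.

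The NRF1 letters GCGCATG, bound by a factor of genes for mitochondrial function, were held by 137 members (2.70%, 2.27 to 3.18), with 1.06% 300 bp to either side, 2.01% around all protein-coding starts, and 3.08% (2.47 to 3.79) in shared windows. They were in 1.78% (1.18 to 2.58) of members with another summit 100 to 500 bp away and in 3.09% (2.54 to 3.71) of those without. The difference from shared windows was -0.38 points (-1.20 to 0.37), and 0.01 points (-0.87 to 0.85) for the members lacking another summit within 500 bp, and both intervals hold 0. The YY1 letters AAGATGGC were held by 110 members (2.17%, 1.78 to 2.60), with 0.728% 300 bp to either side and 2.27% around all protein-coding starts. Shared windows held the YY1 letters in 1.27% (0.894 to 1.76), a difference of 0.89 points (0.28 to 1.45) that was positive on 15 and negative on 7 chromosomes. Of the 20 motifs counted, YY1 was the one for which the interval of this difference lay above 0. It was 1.14 points (0.47 to 1.80) for the members lacking another summit within 500 bp. The SP/KLF letters GGGCGG were in 25.9% (24.7 to 27.1) of members, 24.6% (23.7 to 25.4) of windows 300 bp to either side and 27.1% (26.8 to 27.4) of windows around all protein-coding starts. They were in 28.4% (26.7 to 30.1) of shared windows, a difference of -2.51 points (-4.58 to -0.47), which was -2.15 (-4.36 to 0.05) for the members lacking another summit within 500 bp. The NF-Y letters CCAAT were less frequent at the members' summits (6.91%, 6.23 to 7.64) than in their flanks (10.5%, 9.95 to 11.2) and around all protein-coding starts (9.99%), and shared windows held them in 7.15% (6.23 to 8.17). None of these letter strings contains another of them.

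**Figure D3:**
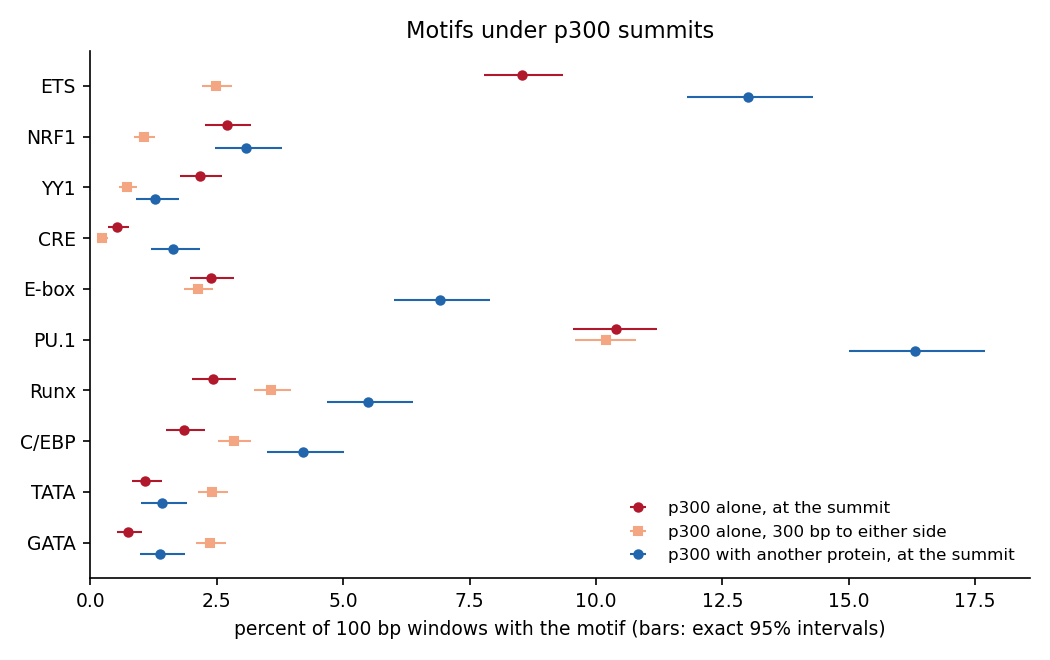
Percent of 100 bp windows that hold each motif (x axis, bars are exact 95% intervals) for 10 motifs, at the summits of members (red circles), 300 bp to either side of them (orange squares) and at the summits of shared windows (blue circles). ETS stands at 8.54% in members, 2.49% beside them and 13.0% in shared windows, and for TATA and GATA the members lie below their own flanks.

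Several motifs set the members apart from shared windows by their lower frequency. The E-box CACGTG, bound by MYC, MAX and USF proteins, was in 2.38% (1.98 to 2.84) of members and 6.91% (6.0 to 7.90) of shared windows, with 2.12% in the members' flanks at 300 bp and 2.74% around all protein-coding starts. The difference of -4.52 points (-5.59 to -3.53) was negative on 21 of 23 chromosomes, and it was -4.35 points (-5.45 to -3.30) for the members lacking another summit within 500 bp. The CRE TGACGTCA, bound by CREB and ATF proteins, was in 0.532% (0.351 to 0.773) and 1.63% (1.19 to 2.17), with 0.826% around all protein-coding starts. Its difference of -1.10 points (-1.66 to -0.63) was -0.90 (-1.48 to -0.37) for the members lacking another summit within 500 bp. With the members that have such a neighbour moved into the compared group, it was -0.35 (-0.78 to 0.08), an interval that holds 0. The shorter form TGACG, which every CRE contains, was in 11.3% (10.5 to 12.2) of members and 16.0% (14.6 to 17.4) of shared windows, with 11.2% around all protein-coding starts.

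Letters read by several blood factors were not more frequent at the members' summits than beside them. The PU.1 letters GAGGAA, which share the core GGAA with the ETS letters, were in 10.4% (9.55 to 11.2) of members, 10.2% of their flanks at 300 bp, 10.5% of windows around all protein-coding starts, 16.3% (15.0 to 17.7) of shared windows and 21.3% of p300 windows alone away from H3K4me3. The Runx letters TGTGGT, read by AML1 and by the fusion, were in 2.42% (2.02 to 2.88) of members, 3.58% of their flanks and 5.49% (4.68 to 6.39) of shared windows, with 4.11% around all protein-coding starts. Since the rule removed windows with AML1 or AML1-ETO, the Runx share is a description. The Myb letters AACNGNC were more frequent at the members' summits (13.5%, 12.6 to 14.5) than in their flanks (11.4%) and around all protein-coding starts (12.6%), but less frequent than in shared windows (17.6%, 16.2 to 19.1). The C/EBP letters TTGCNNAA were in 1.85% (1.50 to 2.26) of members and 4.21% (3.50 to 5.02) of shared windows, with 2.52% around all protein-coding starts. The GATA letters AGATAA were in 0.748% (0.530 to 1.03) of members and 2.37% of their flanks, with 2.22% around all protein-coding starts, and the TATA letters TATAAA in 1.08% (0.817 to 1.41) of members and 2.41% of their flanks, with 3.46% around all protein-coding starts. The TATA letters were similarly rare in shared windows (1.42%) and at H3K4me3 summits without p300 (1.14%), and the intervals of both differences, -0.33 points (-0.90 to 0.16) and -0.06 (-0.39 to 0.32), hold 0.

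The windows were also compared within bands of GC content. Among windows with 65 to 70% GC, ETS was in 9.35% (7.83 to 11.1) of members and 16.5% (13.8 to 19.4) of shared windows, the E-box in 2.28% (1.54 to 3.24) and 7.50% (5.65 to 9.72), and YY1 in 2.51% (1.73 to 3.51) and 1.73% (0.898 to 3.01). In all 4 bands (below 60, 60 to 65, 65 to 70 and from 70% upward), the shares of ETS and the E-box were lower and that of YY1 was higher in members. The intervals were separate in all 4 bands for the E-box and in the bands from 65% upward for ETS, and they overlapped in every band for YY1.

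The matches had preferred positions. Along the direction of transcription, the 494 ETS matches within 50 bp of the summit had a median of 16 bp upstream of the start, with quartiles at -42 and 5.75 bp, and 30.0% (25.9 to 34.2) were downstream. NRF1 matches had a median of 7 bp upstream, and 35.3% (28.7 to 42.3) of 204 were downstream. ETS and NRF1 matches lay on the strand of the gene in 48.6% (44.1 to 53.1) and 52.5% (45.4 to 59.5) of cases, so neither strand was preferred. The YY1 matches differed from both. Of 121, 83.5% (75.6 to 89.6) were on the strand of the gene and 65.3% (56.1 to 73.7) were downstream of its start, with a median of 9 bp downstream and quartiles at -8 and 23 bp.

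The YY1 matches were most frequent 60 to 100 bp upstream of the p300 summit, and within 100 bp of it 6.54% of the members held the letters. The YY1 letters contain ATG, and many of these matches were translation starts. The ATG was an annotated start codon in 67 of 123 matches within 50 bp of all members (54.5%, 45.2 to 63.5) and in 7 of 44 matches 400 to 500 bp away (15.9%, 6.64 to 30.1). The part of translation starts and of YY1 binding in this frequency cannot be told apart from the letters.

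**Figure D4:**
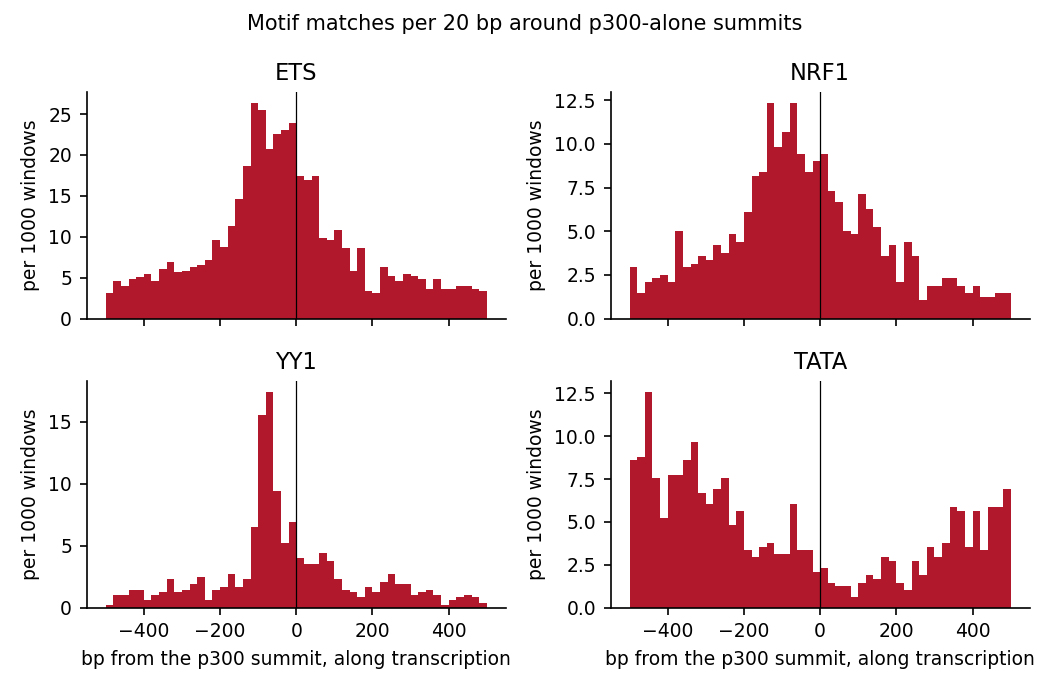
Matches per 1000 promoter members in 20 bp bins (y axis) against the distance from the p300 summit in bp, signed along the direction of transcription (x axis), for ETS, NRF1, YY1 and TATA. ETS, NRF1 and YY1 rise between about 150 bp upstream and the summit, YY1 in the narrowest band at about 100 to 60 bp upstream, and TATA falls towards the summit.

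Since the windows of the classes lie at different distances from the start, motifs were also counted in the promoters of genes, from 250 bp before to 50 bp after the RefSeq start (GRCh38.p14). Of the genes with p300 alone, 3820 of 4566 distinct symbols (83.7%) had such a promoter, as had 82.9% of the genes with shared windows and 80.8% of those with H3K4me3 but no p300. Few promoters of chromosome 8 were used here, and with this chromosome left out 3815 of 4406 symbols with p300 alone (86.6%) had one. ETS letters were then in 24.4% (23 to 25.8) of promoters with p300 alone, 26.4% (24.4 to 28.5) with shared windows, 13.5% (12.5 to 14.6) with H3K4me3 but no p300, and 10.7% of all 27305 promoters. YY1 letters were in 8.51% (7.64 to 9.44), 4.99% (4.03 to 6.10), 2.88% (2.39 to 3.43) and 3.03%, in the same order. NRF1 letters were in 10.1% (9.14 to 11.1), 9.66% (8.33 to 11.1), 5.18% (4.53 to 5.90) and 4.67%. The E-box was in 9.87% (8.94 to 10.9), 14.4% (12.8 to 16.1), 8.85% (8.00 to 9.75) and 7.43%. TATAAA was in 5.18% (4.50 to 5.93) of promoters with p300 alone, 5.49% with shared windows, 5.47% with H3K4me3 but no p300, and 12% of all. The NF-Y letters CCAAT were in 39.5% (37.9 to 41.0) of promoters with p300 alone, 32.7% (30.5 to 34.9) with shared windows, 35.3% (33.9 to 36.8) with H3K4me3 but no p300, and 35.7% of all. The SP/KLF letters were in 71.0% (69.5 to 72.4), 67.0% (64.8 to 69.2), 73.5% (72.2 to 74.9) and 44.6%. Between promoters with p300 alone and with shared windows, the intervals were separate for YY1, NF-Y and SP/KLF, which were higher with p300 alone (at the summits, the SP/KLF difference was negative, at -2.51 points, and that of NF-Y was -0.24, with an interval of -1.45 to 0.91), and for the E-box and GATA, which were lower (GATA 3.56% against 5.33%), with 10.5% of all promoters holding the GATA letters. They overlapped for ETS and NRF1. The median GC content of the promoters with p300 alone was 64.7% (64.3 to 65.3), below the 67.0% (66.3 to 67.3) of promoters with H3K4me3 but no p300. Their median CpG ratio was 0.865 (0.857 to 0.871) with p300 alone and 0.825 (0.817 to 0.832) with H3K4me3 but no p300. With shared windows it was 0.857 (0.846 to 0.866).

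Lists of genes for protein synthesis, protein degradation, respiration, transcription and replication were among those with the highest shares of genes with p300 alone. At least 1 member lay within 1000 bp of a start of 4941 of 19821 protein-coding genes (24.9%). An H3K4me3 summit was near a start of 12392 genes (62.5%), and since the rule asks for H3K4me3, the share among these, 39.8% (38.9 to 40.6), is the background for the gene lists. A shared window was near 20.5% of the H3K4me3 genes, and 41.7% had H3K4me3 without p300. Some lists were high for shared windows too, with 36.6% (22.1 to 53.1) of translation initiation factors and 33.8% (22.6 to 46.6) of spliceosome genes. The intervals for RNA polymerase subunits (11.8%, 3.30 to 27.5) and DNA replication (17.1%, 7.15 to 32.1) hold 20.5%. Without p300 were 12.2%, 13.8%, 26.5% and 17.1% of these lists, in that order. A high share with p300 alone can therefore accompany frequent p300 of both kinds. Of 26 lists with at least 10 H3K4me3 genes, the interval lay wholly above 39.8% for 9 and wholly below it for 1, the chemokines and interleukins, and it held this value for 16. When members with another summit within 500 bp were left out, a condition added after the data had been seen, 27.9% of the H3K4me3 genes had a member, and the interval lay above this share for 4 lists, 3 of them among the 9 (aminoacyl-tRNA synthetases, mitochondrial ribosomal proteins and proteasome subunits), the other being the zinc finger genes. It lay below for the histones and for the chemokines and interleukins. With the first 5000 p300 peaks alone, 6 of the 9 lists were above the share of all H3K4me3 genes and none was below. Those no longer above it were DNA replication, RNA polymerase subunits and translation initiation factors. The genes named are those with the lowest-numbered members of each list.

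**Figure D5:**
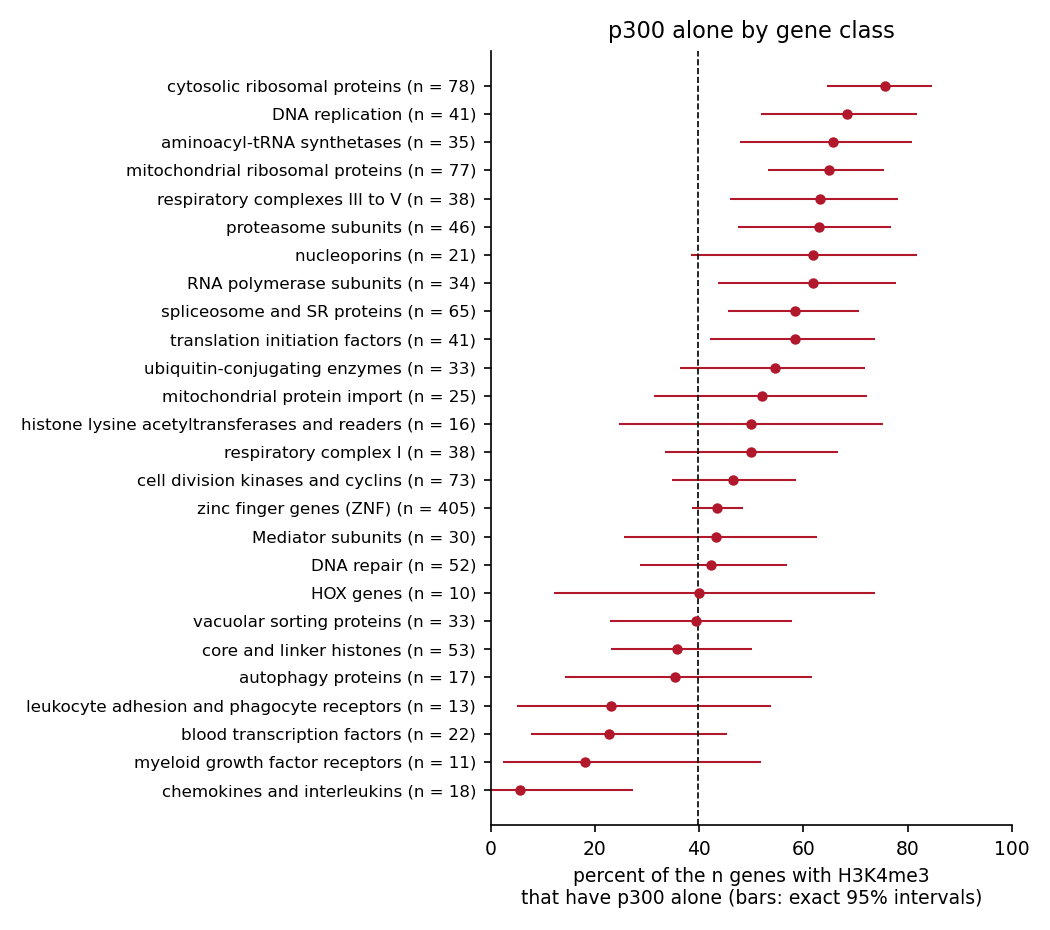
Percent of the genes with H3K4me3 in each list (n beside the name) that have a p300-alone member within 1000 bp of a start (x axis, bars are exact 95% intervals). The dashed line is the 39.8% of all H3K4me3 genes, and cytosolic ribosomal proteins (75.6%) and DNA replication (68.3%) stand at the top, blood gene lists at the bottom.

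Among the cytosolic ribosomal proteins, 59 of 78 genes with H3K4me3 (75.6%, 64.6 to 84.7) had p300 alone and 20 (25.6%) had a shared window, and none of the 78 lacked p300. The lowest-numbered members were at RPL8, RPL29, RPS7 and RPL13, with p300 at 55, 24, 9 and 57 bp downstream of the start. With no other summit allowed within 500 bp, the share was 37.2% (26.5 to 48.9), an interval that holds the 27.9% of all H3K4me3 genes. The other ribosomal protein genes of this list with p300 alone had AML1, AML1-ETO or N-CoR 100 to 500 bp from p300.

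Other genes of protein synthesis also had high shares. The share was 64.9% (53.2 to 75.5) of 77 mitochondrial ribosomal proteins, with members at MRPL58, MRPL39 and MRPS7 at 37, 90 and 12 bp downstream. It was 65.7% (47.8 to 80.9) of 35 aminoacyl-tRNA synthetases, which charge tRNAs with amino acids, and a single window at the divergent pair HARS1 and HARS2, the cytosolic and mitochondrial histidine enzymes, lay 3 bp downstream of the start of the former and 18 bp before that of the latter. Translation initiation factors had 58.5% (42.1 to 73.7) of 41, with EIF3A, EIF2D and EIF4B at 19, 83 and 68 bp downstream and EIF5 at -31 bp. With the 500 bp condition, the shares were 44.2% (32.8 to 55.9) and 45.7% (28.8 to 63.4) for the mitochondrial ribosomal proteins and the synthetases, and 34.1% (20.1 to 50.6) for the initiation factors, which holds the background.

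Among the lists for protein degradation and energy metabolism, the intervals of proteasome subunits and of respiratory complexes III to V lay above the background. Proteasome subunits had 63.0% (47.5 to 76.8) of 46, and 45.7% (30.9 to 61.0) with the 500 bp condition, among them PSMD14, the deubiquitinase of the proteasome lid, at -18 bp and PSMC3, a base ATPase, at 64 bp. Ubiquitin-conjugating enzymes had 54.5% (36.4 to 71.9) of 33. The respiratory complexes III to V had 63.2% (46.0 to 78.2) of 38, with UQCRC1 (complex III) at 2 bp and COX5B (cytochrome c oxidase) at 14 bp. With the 500 bp condition their share was 42.1% (26.3 to 59.2), which holds the background of 27.9%. Complex I had 50.0% (33.4 to 66.6) of 38, with NDUFS6 at -20 bp and NDUFA13 at -52 bp. Mitochondrial protein import had 52.0% (31.3 to 72.2) of 25, with TOMM22 at 51 bp and TOMM70 at -12 bp, 2 receptors of the outer membrane. The intervals for ubiquitin conjugation, complex I and import hold the background.

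Genes of transcription, splicing and replication were also frequent. RNA polymerase subunits had 61.8% (43.6 to 77.8) of 34, with POLR2L at 55 bp, POLR2C at 25 bp and POLR3C at 23 bp. Spliceosome and SR proteins had 58.5% (45.6 to 70.6) of 65, with SF3B3 at 19 bp, SF3B1 at 70 bp and SRSF2 at 9 bp. With the 500 bp condition, both lists held the background, with 41.2% (24.6 to 59.3) and 36.9% (25.3 to 49.8). DNA replication had 68.3% (51.9 to 81.9) of 41, with PCNA, the sliding clamp, at -10 bp and MCM6, a helicase subunit, at 61 bp, and with the 500 bp condition the share was 41.5% (26.3 to 57.9), which holds the background. DNA repair was near the background at 42.3% (28.7 to 56.8) of 52, with CHEK1 at 42 bp and XRCC2 at 21 bp, as were Mediator subunits at 43.3% (25.5 to 62.6) of 30 and cell division kinases and cyclins at 46.6% (34.8 to 58.6) of 73.

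Genes of blood cells were on the low side. Over the lists of neutrophil granule proteins, myeloid growth factor receptors, blood transcription factors, and leukocyte adhesion and phagocyte receptors together, 11 of 53 genes with H3K4me3 (20.8%, 10.8 to 34.1) had p300 alone, 20 (37.7%) had a shared window, against 20.5% of all H3K4me3 genes, and 20 (37.7%) had H3K4me3 without p300, against 41.7%. The interval of each of these 4 lists taken alone holds the 39.8% of all H3K4me3 genes with p300 alone. Of the blood transcription factors, 5 of 22 (22.7%, 7.82 to 45.4) had p300 alone and 11 (50.0%) a shared window. The 4 lowest-numbered with p300 alone were CBFB, the partner subunit of AML1, at -142 bp, GFI1B at 506 bp, RUNX1, which encodes AML1, at -33 bp, and CEBPA, a master regulator of granulocytes, at -617 bp. A member near any start of a gene was enough, and the gene could also have a shared window or other summits nearby. The granule protease ELANE had p300 alone at -370 bp. In the list of leukocyte adhesion and phagocyte receptors, ITGA4, CD37 and CD44 had it at -48, -5 and 0 bp. Chemokines and interleukins had 1 of 18 (5.56%, 0.141 to 27.3), IL23A. None of the 10 myeloblast markers was a gene with p300 alone at its promoter.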

How the data were processed

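The authors pooled the replicates of each antibody, called peaks and deposited BED positions with no score. The submitters' processing notes name CASAVA 1.6, Bowtie 0.12.8 and MACS2 2.0.10.20131216, and the paper's methods name hg19. The deposited values (other: start and end coordinates) were checked to span 100 bp each. Coordinates here are counted from 1. No H3K27me3 or input library was used here.

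Members and gene lists were chosen with earlier results of these data known. Starts, exons and genes came from GENCODE release 44 lifted to GRCh37 (254413 transcripts). Shares have exact Clopper-Pearson 95% intervals, differences Newcombe's intervals, and medians order-statistic intervals. Windows on 1 chromosome or at 1 gene are not independent, so intervals cover counting error only. A gene had p300 alone when a member was within 1000 bp of any of its starts. In all, 20 motifs given as letters and 29 gene lists were counted, and no set test was made. RefSeq promoters were matched by symbol or synonym. Genes with neither mark are not reported for these, since 72.3% were matched. Named were the 5 lowest-numbered members, up to 4 genes a list with the lowest peak numbers, the lowest-numbered members with a motif or between divergent starts, and those beside each limit, and some genes that this rule would name are not reported here. Counting was tested on simulated data. Sequences were read with samtools 1.23.1 and pysam 0.24.0, intervals were computed in Python 3.11.15 (SciPy 1.17.1, pandas 2.3.3, numpy 2.4.6), and figures were drawn with matplotlib 3.10.9. Alternatives were other window widths, distance limits, start sets and motif widths, the first 5000 peaks, each chromosome left out, and a 500 bp limit on other summits, which for gene lists was added after the data had been seen, as were the nearest start of each gene of a pair and the comparison of members without such summits with unchanged shared windows.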

Additional observations from a re-analysis of the deposited data

How the results depend on the processing

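The depth of the libraries is not in the files, the lists hold no scores, and no paired analysis was possible because each antibody has 1 pooled list. The share of members at promoters (94.0%) was 87.5% with protein-coding transcripts only, 90.8% within 500 bp and 95.4% within 2000 bp of a start. With no AML1, AML1-ETO or N-CoR summit within 500 bp, the median offset was 4 bp in place of 8, the ETS share 10.4%, and the share of H3K4me3 genes 27.9% in place of 39.8%. This setting also moves the 1516 members with a neighbour into the compared group, and then the downstream difference was 6.24 points and the ETS difference reversed to 0.45 points (-0.88 to 1.80), an interval that holds 0. With the shared windows unchanged, a comparison added after the data had been seen, these differences were 15.64 and -2.61 points (-4.22 to -1.03). With no other summit within 500 bp, the number of gene lists above the share of all H3K4me3 genes was 4 in place of 9, and with the first 5000 peaks it was 6. An H3K4me3 limit of 500 bp gave an offset of 12 bp. Windows of 25 bp to either side gave a downstream difference of 21.03 points, and protein-coding starts 22.17. The first 5000 peaks of the deposited p300 list held 2130 members, with a promoter share of 96.6%, an offset of 14 bp, a downstream difference of 24.31 points, a divergent share of 14.4%, a CpG ratio of 0.853, ETS in 10.2%, YY1 in 2.86%, and 18.5% of the H3K4me3 genes. The divergent share was 10.8% for starts at most 300 bp apart and 31.3% with partners of any type. With the nearest start of each gene, the share of members near a pair whose summit lay between its starts was 26.9%, and ETS letters were in 26.0% of these. Within 500 bp of the summit, median GC content was 62.1% and the CpG ratio 0.783. Within 25 bp and 100 bp, ETS was in 4.25% and 15.0%, NRF1 in 1.56% and 5.41%, and YY1 in 1.08% and 6.54%. The gene share was 38.5% within 500 bp of a start. Leaving out each chromosome in turn gave 4535 to 5079 members, promoter shares of 93.9 to 94.2%, offsets of 7 to 9 bp, divergent shares of 12.9 to 13.5% and ETS shares of 8.36 to 8.71%. The causes of these changes were not tested.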

Other observations

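Zinc finger genes named ZNF formed the largest list with p300 alone. Of 405 such genes with H3K4me3, 176 (43.5%, 38.6 to 48.4) had a member near a start and 76 (18.8%) a shared window, which is close to the 39.8% and 20.5% of all H3K4me3 genes. The lowest-numbered were ZNF267, ZNF7, ZNF621 and ZNF518A, with p300 at 35, 50, 34 and 146 bp downstream of the start. Chromosome 19, where many of these genes lie, held 476 members and the highest number per 100 H3K4me3 summits (32.8), and chromosome X the lowest (11.9) apart from Y, which held 0 members. Core and linker histone genes had p300 alone in 19 of 53 (35.8%, 23.1 to 50.2). With no other summit allowed within 500 bp it was 11.3%, against 27.9% of all H3K4me3 genes under that condition. HOX genes had it in 4 of 10 with H3K4me3 (40.0%, 12.2 to 73.8). Nucleoporins had p300 alone in 13 of 21 (61.9%, 38.4 to 81.9), histone lysine acetyltransferases and readers in 8 of 16 (50.0%, 24.7 to 75.3), with EP300, which encodes p300, among them, vacuolar sorting proteins in 13 of 33 (39.4%, 22.9 to 57.9) and autophagy proteins in 6 of 17 (35.3%, 14.2 to 61.7). Myeloid growth factor receptors had it in 2 of 11 (IL17RA and CSF2RB) and neutrophil granule proteins in 1 of 7. Of the olfactory receptors 2 had H3K4me3 and 0 a member, and 0 keratin genes had H3K4me3.

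Among the 5 lowest-numbered members were ANP32E (a histone chaperone), RPL8, RPL29 and the lncRNA genes PROSER2-AS1 and SNHG15 (a host of small nucleolar RNAs), with p300 between 9 bp before and 55 bp after the start. With the deposited p300 list divided into 10 parts by peak number, members made up 32.2% of the first part (peaks 1 to 1102) and 40.9% of the next, and between 46.1% and 52.1% of each later part. The meaning of the peak number is not given in the sources used here. YY1 letters were in 3.94% of the members of the first part and 0.965% of the last, and ETS letters in 9.30% and 5.79%, with 12.4% in the second part. Those without another summit within 500 bp were 54.9% of the members of the first part and 76.3% of the last. Pairs of neighbouring members at most 1000 bp apart numbered 268, so a small part of the members share a promoter.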
